A study of Mus musculus with 15 samples.

Results

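The regions described here are the genomic regions where p53 chromatin immunoprecipitation sequencing (ChIP-seq) signal ranked high in liver, spleen and thymus alike. The authors deposited 1 list of regions per organ, each region with a score of their own. Members were chosen by the deposited scores themselves, so the scores describe them and test nothing. A region was kept when it had the same chromosome, start and end in all 3 lists and when its score stood at percentile 60 or more in each list. There were 388 such regions, called core regions below, out of 1930 regions held by all 3 lists and 4137 distinct regions in all. The percentile is the rank of the score within the whole organ list, with ties averaged, divided by the length of the list, so 100 is the highest score of an organ. Where 3 percentiles stand together without organ names, they are those of liver, spleen and thymus in that order.

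The lists come from wild-type mice, and 5 libraries are labelled for each organ. Of these, 2 come from animals irradiated with X-rays (2 Gy, 3 h before), 2 come from animals without treatment and 1 is input, chromatin sequenced without the antibody step. All 15 libraries share the wild-type genotype, and the labels give neither strain nor age. The same list is named for all 5 libraries of an organ. The list names contain the words irrad and IgG, and IgG is an antibody without a chosen target. Each organ is thus a single measurement with no replicates and unknown read depth, and the effect of radiation on a region cannot be told apart from binding without it. Bulk organs hold many cell types, and binding in more cells cannot be told apart from more binding per cell.

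p53, encoded by Trp53, is a transcription factor that is held at low levels in unstressed cells, mainly by the ubiquitin ligase Mdm2, and accumulates after DNA damage. It binds DNA as a tetramer, and its response element is a pair of short half-sites, each contacted by a pair of p53 subunits. Its targets include inhibitors of the cell cycle, inducers of apoptosis, repair genes, metabolic regulators and inhibitors of p53 itself. Liver survives irradiation comparatively well, whereas lymphocytes of spleen and thymus die readily after it.

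A p53 half-site could be read only where a core region overlapped a RefSeq promoter window, which spans 250 bases before to 50 after a gene start (GRCm38.p6, the assembly that mm10 names). The stretches below are the sequences in which an exact half-site lay inside a core region, 1 stretch of 100 bases per gene, given 5′ to 3′ on the strand of the gene, with the exact half-sites in capitals. They are shown because they place the DNA element that p53 is known to contact within core regions.
Gm51651 (chr1:155056279-155056378, + strand): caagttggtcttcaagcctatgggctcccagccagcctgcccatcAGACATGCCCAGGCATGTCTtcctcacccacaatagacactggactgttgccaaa
Cdkn1a (chr17:29090861-29090960, + strand): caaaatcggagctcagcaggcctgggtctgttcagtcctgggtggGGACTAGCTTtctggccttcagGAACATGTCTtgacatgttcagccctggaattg
Ccng1 (chr11:40755417-40755516, - strand): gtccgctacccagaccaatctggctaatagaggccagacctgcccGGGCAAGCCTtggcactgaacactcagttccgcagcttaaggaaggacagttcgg
Rps19 (chr7:24884768-24884867, + strand): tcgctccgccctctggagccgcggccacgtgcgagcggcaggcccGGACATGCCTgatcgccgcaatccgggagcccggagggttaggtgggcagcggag
Exoc4 (chr6:33248880-33248979, + strand): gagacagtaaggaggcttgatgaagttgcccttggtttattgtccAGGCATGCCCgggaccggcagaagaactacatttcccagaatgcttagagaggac
Inka2 (chr3:105705332-105705431, + strand): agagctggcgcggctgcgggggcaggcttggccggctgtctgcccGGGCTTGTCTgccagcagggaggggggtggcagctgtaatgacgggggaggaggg
Ei24 (chr9:36797335-36797434, - strand): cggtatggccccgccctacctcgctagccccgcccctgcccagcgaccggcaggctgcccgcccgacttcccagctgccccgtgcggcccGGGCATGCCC
Rps27l (chr9:66946261-66946360, + strand): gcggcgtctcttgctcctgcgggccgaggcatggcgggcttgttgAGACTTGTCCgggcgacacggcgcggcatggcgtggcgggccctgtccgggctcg
The stretch named Gm51651, a long noncoding RNA gene, lies in the core region nearest Ier5 and carries 2 exact half-sites that abut with no base between them, which makes a complete response element without a mismatch. Cdkn1a carries 2 exact half-sites 12 bases apart, starting 73 and 51 bases before the gene start. The second of these directly abuts a further half-site with 1 mismatch. Cdkn1a thus also holds a full element with 1 mismatch and no spacer. Ccng1 and Rps27l each carry a full element with 1 mismatch and no spacer, and Rps19 one with 2 mismatches and no spacer.

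An exact half-site was found in 11 of the 31 promoter windows that overlap a core region (35.5%, exact Clopper-Pearson 95% interval 19.2 to 54.6), in 29 of 216 windows that overlap another region of all 3 lists (13.4%, 9.18 to 18.7) and in 2745 of all 32851 windows (8.36%). The half-site reads the same on both strands, so each match counts once. The 31 windows belong to 23 genes, of which 10 had an exact half-site, and windows of 1 gene can share sequence. Of the 23 genes, 11 are on the lists of p53 targets described below, and 7 of the 10 with an exact half-site are on them. A full element means 2 half-sites 0 to 13 bases apart with at most 3 mismatches in all. It was found in 17 of the 31 windows (54.8%, 36.0 to 72.7), in 66 of 216 (30.6%, 24.5 to 37.2) and in 5114 of all windows (15.6%). The first 2 of these intervals overlap. With 1 mismatch allowed in a half-site, the shares were 67.7% (48.6 to 83.3) at core regions and 59.7% (52.9 to 66.3) at the other shared regions, and these intervals overlap. No test was run on these shares. In Bax and Zfp958 the exact half-site of the window lay outside the core region, but their windows are counted among the 11. In Phlda3, whose product represses Akt signalling, no half-site with at most 1 mismatch lay in the window.

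The scores of the core regions were of similar rank in the 3 organs. The median percentile was 88.4 for liver, 87.4 for spleen and 87.8 for thymus, and the lowest percentile of a member was 60.3, 60.1 and 60.1 in that order of organs. These values follow from the rule and describe the members only. The highest of the 3 percentiles was in liver for 144 members, in spleen for 117 and in thymus for 127. The 3 percentiles lay within 10 points of each other for 141 members (36.3%), and their median spread was 13.5 points (range 0.237 to 38.6). Scores were tied for 67.3% of members in liver, 71.6% in spleen and 74.5% in thymus, so percentiles move in steps. In the whole lists the tied shares were lower, at 49.1%, 48.8% and 51.9%. Of the 1930 regions of all 3 lists, 20.1% reached percentile 60 in every list, and the shares for single organs were 42.6% (liver), 48.0% (spleen) and 45.5% (thymus).

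**Figure D1:**
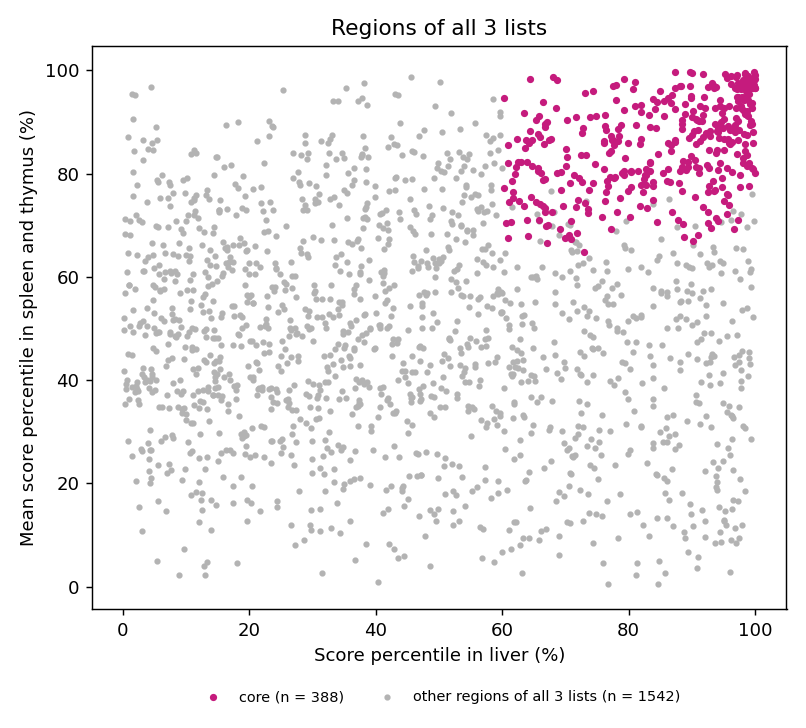
Score percentile in liver (x axis, percent) against the mean of the percentiles in spleen and thymus (y axis, percent) for the 1930 regions of all 3 lists. Each point is a region, with the 388 core regions in pink and the other 1542 in grey, and the core lies at the upper right. Grey points lie there too, such as the one nearest Pros1, because the rule needs percentile 60 in spleen and in thymus and not only in their mean.

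Across the 388 members, Spearman's rho of percentiles was 0.40 between liver and spleen, 0.35 between liver and thymus and 0.39 between spleen and thymus. These are correlations over regions, cut at percentile 60 on both axes, and the regions of a list share its library depth. Over all 1930 regions the values were 0.26, 0.20 and 0.58. The members were selected on these same percentiles, and the effect of that on the values within the core was not tested. No order of the organs is read from them. Near the threshold, the 3 members with the lowest values had lowest percentiles of 60.14 (nearest coding gene Nrg1), 60.08 (Hyal6) and 60.06 (Slc5a3), and the 3 regions just outside had 59.99 (Wscd1), 59.75 (Pros1) and 59.75 (Ulbp1). The cutoff thus falls within a continuous range and marks no gap.

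Members were found on every autosome and on the X chromosome. Their share of the regions of all 3 lists ran from 12.2% on chromosome X (5 of 41, interval 4.08 to 26.2) to 31.4% on chromosome 4 (33 of 105, 22.7 to 41.2). These are the lowest and highest shares of all chromosomes, and the share over all 1930 regions was 20.1%.

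Listed p53 targets made up a small part of the core. A gene of 6 lists of p53 targets lay within 5 kb of 25 members (6.44%, interval 4.21 to 9.36), against 40 of the other 1542 regions of all 3 lists (2.59%, 1.86 to 3.52). For 3 further members the nearest coding gene was a listed target more than 5 kb away. The remaining 360 members had neither. The lists do not hold every known target, and the miR-34 loci described below are not on them. Read from the genes, 24 of the 115 listed targets had a core region inside or within 5 kb (20.9%, 13.9 to 29.4), beside 1.06% of 21887 coding genes and 0.717% of 49943 genes of any kind. A further 28 had a region of all 3 lists that fell below percentile 60 in at least 1 organ, 14 had regions in 1 or 2 lists, and 49 had none. The lists were drawn up with earlier results of these data known, so these counts are descriptive.

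**Figure D2:**
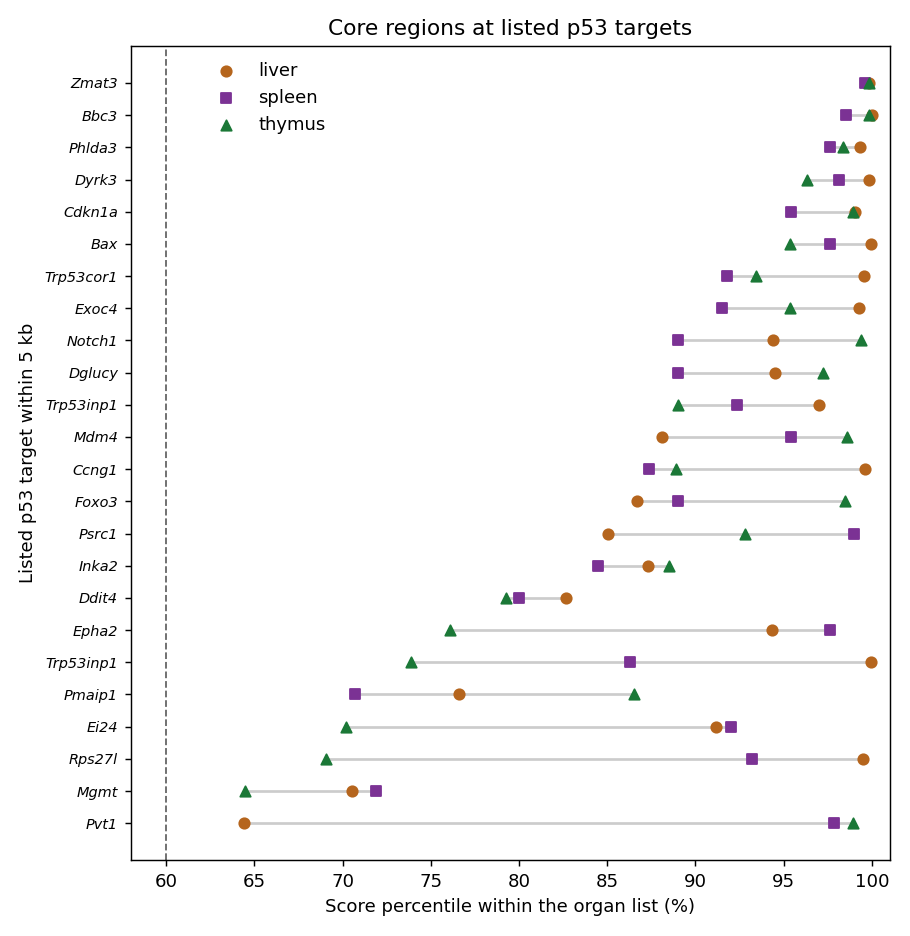
Score percentile within the organ list (x axis, percent) for 24 of the 25 core regions with a listed p53 target within 5 kb (y axis, by gene), with circles for liver, squares for spleen, triangles for thymus and a dashed line at the threshold of 60. Zmat3 and Bbc3 stand above 98 in every organ, whereas Pvt1 and Mgmt lie near the threshold in at least 1 organ.

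Genes that restrain or modify p53 gave 4 of 13 with a core region. Mdm4, a relative of Mdm2 that blocks the transactivation domain of p53, ranked at 88.1 for liver, 95.4 for spleen and 98.6 for thymus (chr1:133020101-133020650, inside the gene). Ccng1 encodes cyclin G1, which recruits a phosphatase to Mdm2, and its region covers the gene start shown above (chr11:40754801-40755850; 99.6, 87.4 and 88.9). Trp53inp1, a stress-induced cofactor of p53, was the only listed gene with 2 core regions within 5 kb. One covers a gene end (chr4:11155801-11156650) at 99.9 for liver, 86.3 for spleen and 73.9 for thymus, and the other lies 1522 bp outside the gene (chr4:11175901-11176650) at 97.0, 92.4 and 89.0. Pvt1 is a long noncoding RNA gene next to Myc, and its region (chr15:62039101-62039550) ranked at 64.4 in liver but 97.8 in spleen and 98.9 in thymus. The regions of 5 others, Mdm2, Ppm1d, Trp53, Trp73 and Wrap53, were in all 3 lists but missed the rule, and Trp53 and Wrap53 share 1 region. Mdm2 itself ranked at 76.0 for liver, 63.5 for spleen and 27.0 for thymus, so the thymus value alone kept it out.

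Cell cycle genes gave 2 of 16. Cdkn1a encodes the cyclin-dependent kinase inhibitor p21 and ranked at 99.1 for liver, 95.4 for spleen and 98.9 for thymus (chr17:29090601-29091250). Trp53cor1, the gene of the noncoding RNA lincRNA-p21, belongs to the signalling list and had a separate core region at its end, 11529 bp from Cdkn1a (chr17:29078701-29079450; 99.6, 91.8 and 93.4). Psrc1, which encodes a spindle protein, ranked at 85.0, 99.0 and 92.8, and Mybphl also lay within 5 kb of its region. Btg2, an antiproliferative gene, had a region of all 3 lists at 99.1 in liver but 39.8 in spleen and 48.9 in thymus. Ckap2, which encodes a microtubule-associated protein, missed in spleen alone, at 98.2, 58.3 and 72.3.

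Apoptosis and survival genes gave 7 of 23, the most of any list together with the signalling list. Zmat3 encodes a zinc finger protein that binds RNA, and it had the highest lowest percentile of all members, 99.6, which was its value in spleen. It was followed by Bbc3, the gene of the BH3-only protein Puma, with 99.99 for liver, 98.5 for spleen and 99.8 for thymus over a region of 2050 bp. Bax, the pore-forming effector of mitochondrial apoptosis, and Phlda3 stood above 95 in each organ. Pmaip1 (Noxa) ranked at 76.6, 70.7 and 86.5. Ei24 and Rps27l, stress-induced genes with half-sites shown above, were high in liver (91.2 and 99.5) and spleen (92.0 and 93.2) but nearer the threshold in thymus (70.2 and 69.0). Aen, a nuclease gene, and Fas, the death receptor gene, missed the rule in a single organ each, Aen with 55.4 in thymus and Fas with 57.3 in spleen.

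DNA repair genes gave 1 of 14, Mgmt, which encodes the enzyme that removes alkyl groups from guanine (70.5, 71.9 and 64.5). Polh, the gene of the translesion polymerase eta, reached 99.2 in liver and 65.6 in spleen but 56.3 in thymus. The metabolic and mTORC1 list gave 3 of 24. Ddit4, an inhibitor of mTORC1, had a region 1025 bp outside the gene, and its percentiles lay between 79.3 and 82.6. Foxo3, a forkhead transcription factor gene, had a region inside the gene (chr10:42261101-42261550; 86.7, 89.0 and 98.5).

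The signalling list gave 7 of 25. Dyrk3, a protein kinase gene, ranked at 99.8, 98.2 and 96.3 over 1850 bp. The region 2879 bp from Notch1, the receptor gene, ranked at 94.4, 89.0 and 99.4. Epha2, a receptor kinase gene, ranked at 94.3 for liver, 97.6 for spleen and 76.1 for thymus. Exoc4, the gene of an exocyst subunit, had a region at its start with a half-site shown above (chr6:33248401-33249450; 99.3, 91.5 and 95.4). Inka2, which encodes an inhibitor of the kinase Pak4, ranked at 87.3, 84.5 and 88.5 (chr3:105704801-105705550). Dglucy, which encodes D-glutamate cyclase, ranked at 94.5, 89.0 and 97.2 (chr12:100778901-100779450).

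The region nearest Ier5, an immediate early gene that acts on heat shock factor, lay 39617 bp from it at the end of noncoding genes (chr1:155055501-155056750). It ranked at 99.9 for liver, 97.4 for spleen and 99.4 for thymus and holds the mismatch-free response element printed above. Another member with a listed target as nearest coding gene lay 5045 bp from Sesn2, which encodes an inhibitor of mTORC1, at 63.0, 75.3 and 89.1.

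**Figure D3:**
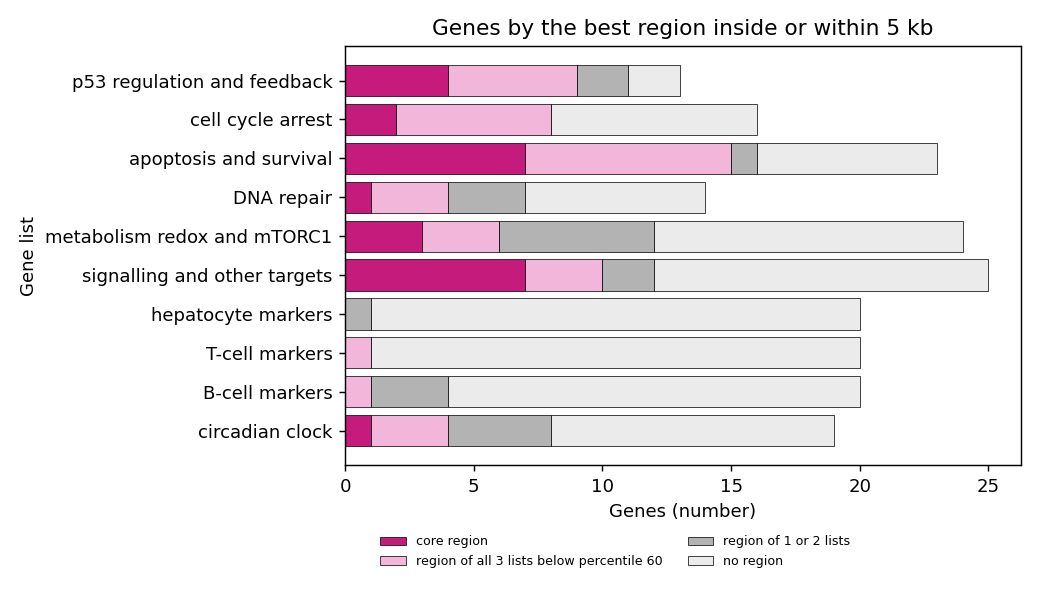
Number of genes (x axis) in each gene list (y axis) by the best region inside the gene or within 5 kb, from core region (dark pink) through a region of all 3 lists below percentile 60 and a region of 1 or 2 lists to no region. The 6 p53 lists hold 24 genes with a core region and the 4 lists of organ markers and clock genes hold 1.

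None of 20 hepatocyte genes, 20 T-cell genes and 20 B-cell genes, markers of the organs' main cells, had a core region (0 of 20 each, upper bound of the interval 16.8%). Since 1.06% of all coding genes had one, lists of this size cannot show whether markers differ from other genes. Bcl11b, a T-cell transcription factor gene, had a region of all 3 lists at 85.4 in thymus, 51.8 in liver and 0.115 in spleen. Of 19 clock genes 1 had a core region, Nr1d2, which encodes the repressor REV-ERB beta (98.9 for liver, 98.8 for spleen and 95.4 for thymus). That share of 5.26% has an interval of 0.133 to 26.0, which includes the 1.06% of all coding genes.

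The strongest members included several genes outside the lists. Among the 15 members with the highest lowest percentile, 3 had a listed target within 5 kb, and among the first 50 there were 6. Bcl2l11 encodes Bim, a BH3-only inducer of apoptosis, and its region inside the gene ranked at 98.3 for liver, 99.3 for spleen and 99.4 for thymus (chr2:128133801-128134450). Ppp3ca, the gene of a catalytic subunit of the phosphatase calcineurin, held one at 98.7, 97.2 and 98.1 (chr3:136790401-136790950). Rps19, which encodes a protein of the small ribosomal subunit, had a region at its start, with the half-site shown above, at 98.0, 97.0 and 96.7 (chr7:24884501-24885250). Orc5, the gene of a subunit of the origin recognition complex, ranked at 97.3, 96.5 and 98.6 (chr5:22542701-22543150). Laptm5, a lysosomal protein gene of blood cells, ranked at 97.0, 99.3 and 98.1 (chr4:130921101-130921750), with liver the lowest of the 3 organs.

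Other strong members lay outside coding genes, some of them far away. The third-ranked member lay inside the pseudogene Gm6951, 5573 bp from Pkd2l1, a cation channel gene (chr19:44253901-44254850; 98.3, 99.0 and 99.8). The widest member, of 2350 bp, lay at the noncoding gene Snhg15, a host of small nucleolar RNAs, with Myo1g as nearest coding gene at 5541 bp (chr11:6526501-6528850; 97.2, 99.2 and 98.9). The nearest coding gene was 87218 bp away for the member by Ankrd46 and 18415 bp away for the one by Yipf5. Of the 15 highest members with no listed target, 1 lay inside Lhfpl3 and others lay within 5 kb of 1700029H14Rik, Gpalpp1, Zscan20, and Gm42048 with Klhdc4. The percentiles of these 5 members ran from 96.2, that of Zscan20 in liver, to 99.8, that of Gm42048 in thymus.

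**Figure D4:**
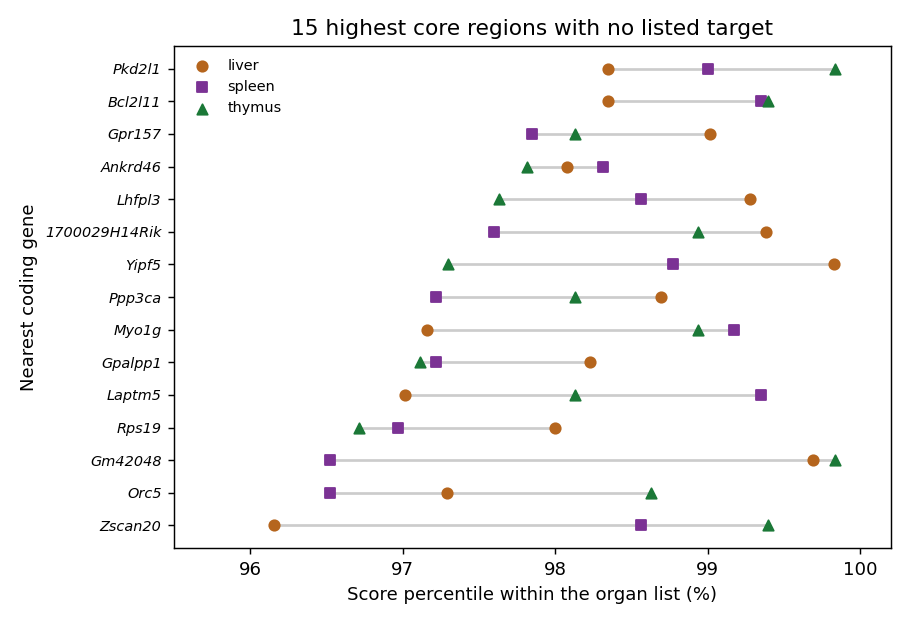
Score percentile within the organ list (x axis, percent, not starting at 0) for the 15 highest core regions with no listed p53 target, named by nearest coding gene (y axis), with circles for liver, squares for spleen and triangles for thymus. All values lie above 96, and no organ is the lowest throughout.

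Core regions lay upstream of both loci of the miR-34 family, named here after their values were seen. MicroRNAs of this family repress cell cycle genes, and they are known as direct targets of p53. The sixth-ranked member lies inside the noncoding gene Gm13067, 18903 bp upstream of the Mir34a hairpin and 37953 bp from its nearest coding gene, Gpr157 (chr4:150048701-150049550). It ranked at 99.0 for liver, 97.8 for spleen and 98.1 for thymus. A second member lies 2155 bp upstream of Mir34b and 2690 bp upstream of Mir34c, at the coding genes Btg4 and Hoatz (chr9:51105801-51106150). It ranked at 88.5, 88.7 and 74.1. The mature sequences below, from RefSeq (GRCm38.p6), are shown because the loci produce microRNAs with 1 shared seed, bases 2 to 8, in capitals.
mmu-miR-34a-5p: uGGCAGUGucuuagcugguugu
mmu-miR-34b-5p: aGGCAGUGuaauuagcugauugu
The seeds are identical, while the rest of the sequences differ. Of 1005 hairpins in the RefSeq table, 11 lay within 25 kb of a core region, at 10 members.

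A smaller share of core regions than of the other shared regions lay at gene ends. The midpoint was within 1 kb of an end of any annotated gene for 48 of 388 members (12.4%, interval 9.26 to 16.1) and for 318 of the other 1542 regions (20.6%, 18.6 to 22.7). A further 176 members (45.4%) had their midpoint within a gene but beyond 1 kb of any end, and 164 (42.3%) lay outside genes, against 39.2% and 40.1% of the other regions. With a window of 2 kb the gene-end shares were 23.5% in the core and 27.8% in the others, and their intervals overlap. No test was run, because regions are not replicates of an organ. Listed and unlisted members differed in place. Of the 25 members at a listed target, 16 lay at a gene end (64.0%, 42.5 to 82.0), against 32 of the other 363 (8.82%, 6.11 to 12.2). A window of 5 kb around a gene favours its ends in the first group by construction. How much of the contrast comes from this was not tested. For 169 members (43.6%) no coding gene lay within 5 kb, and 36 of these lay inside or at the end of a gene that does not code for protein. Of the 176 members inside genes, 128 had a coding host gene whose strand was known, and 41 of them (32.0%, 24.1 to 40.9) lay in the first 25% of the gene from its start, against 112 of 410 other regions (27.3%, 23.1 to 31.9).

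**Figure D5:**
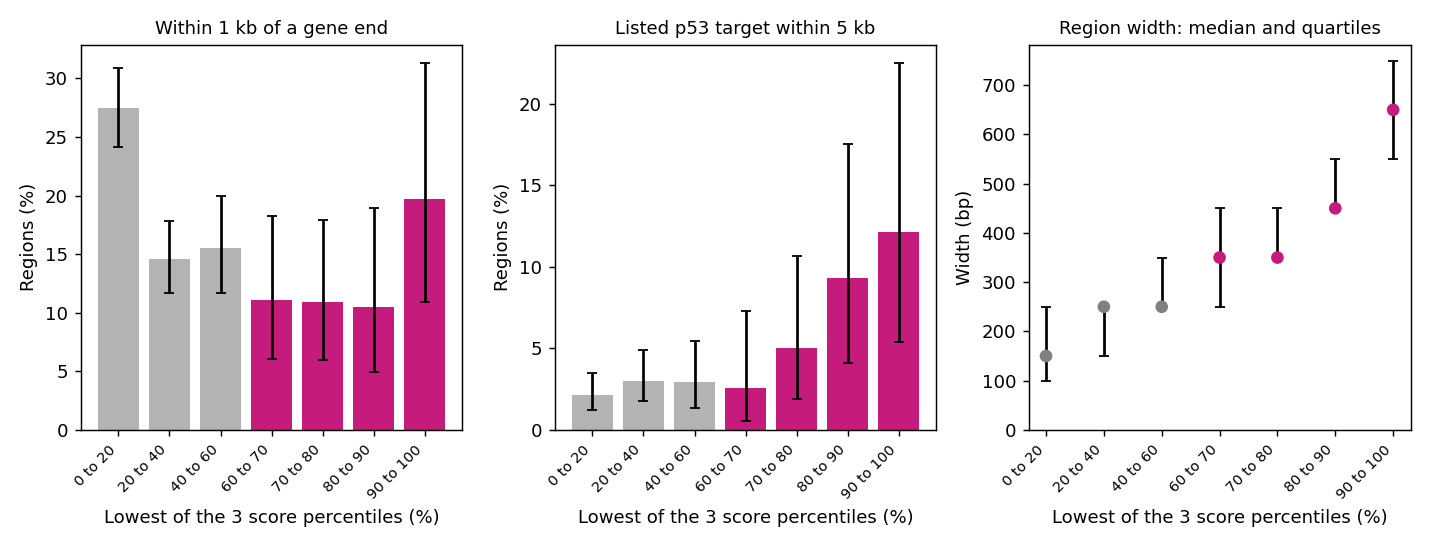
Regions of all 3 lists by the lowest of their 3 score percentiles (x axes, percent), with core bins in pink and the others in grey. The panels give the percent of regions within 1 kb of a gene end, the percent with a listed p53 target within 5 kb (bars with exact 95% intervals) and the width in bp (median with quartiles).

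The order by rank showed that the gene-end share did not fall steadily. It was 27.5% among regions whose lowest percentile was under 20, 14.6% from 20 to 40 and 15.5% from 40 to 60. Within the core it was 11.1%, 10.9% and 10.5% in the bins from 60 to 70, 70 to 80 and 80 to 90, and 19.7% (10.9 to 31.3) among the 66 members at 90 or more, with a lower bound close to the values of the other core bins. The share with a listed target within 5 kb was 2.13% under 20, 3.02% from 20 to 40 and 2.90% from 40 to 60. In the core it was 2.56% from 60 to 70 (3 of 117) and 5.04% from 70 to 80 (6 of 119). It was 9.30% from 80 to 90 (8 of 86) and 12.1% at 90 or more (8 of 66). The core bin from 60 to 70 was thus similar to the bins below the core. The intervals of the lowest and highest core bins overlap (0.532 to 7.31 and 5.38 to 22.5).

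Core regions were wider than the other shared regions. The median width was 450 bp (quartiles 350 and 550) in the core and 250 bp (150 and 250) in the others. Of regions wider than 550 bp, 67 of 86 were in the core (77.9%, 67.7 to 86.1), and of those up to 150 bp, 12 of 778 (1.54%). Width moved with the score within the core, with Spearman's rho of 0.55 for liver, 0.54 for spleen and 0.44 for thymus over 388 regions. Over all 1930 regions of all 3 lists the values were 0.60, 0.50 and 0.45, so the relation is not particular to the core. Width and score may both come from the same reads, so the width is not an independent measure of binding. Gene-end shares within width classes kept the same order. Up to 250 bp they were 9.23% of 65 core regions (3.46 to 19.0) and 16.3% of 1232 others (14.3 to 18.5), and these intervals overlap. From 300 to 450 bp they were 8.02% of 212 (4.74 to 12.5) and 35.0% of 260 (29.2 to 41.1). From 500 bp up they were 22.5% of 111 (15.1 to 31.4) and 52.0% of 50 (37.4 to 66.3). How far width accounts for the gene-end contrast was not tested.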

How the data were processed

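Signal of p53 ChIP-seq in liver, spleen and thymus was taken from 3 deposited region lists, 1 per organ. Each region has a score that the authors gave it, deposited without a stated scale. Build mm10 is named per the submitters' processing notes. For the region caller, aligner, normalization and any pooling, names and settings were not given in the sources used here, so differences in depth or calling between organs could move the percentiles. All deposited bounds were multiples of 50 bp, and whether regions were called separately in each organ is not given. Identical bounds are thus not independent agreement between organs, and a shared region has the same width in every organ by the rule. Starts were converted to 1-based coordinates. Only the rank of a score within its list was used. The members, gene lists and named regions were chosen with earlier results of these data known.

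Genes came from the RefSeq table of GRCm38.p6 (49943 genes on the autosomes and sex chromosomes, 21887 coding), which has no exons. All 194 list genes matched by symbol. The named genes are the 15 members with the highest lowest percentile, the 15 highest with no listed target, every listed gene with a core region and the 3 regions on each side of the threshold. The regions by 1 gene that this rule names are counted but not reported here. The promoter and microRNA tables are RefSeq's and were used for sequence and strand; no sequence on chromosome 18 was used. Promoter windows number 32851 for 27025 genes. Intervals are exact Clopper-Pearson 95% intervals and cover counting error only. With 1 list per organ no replicate test was possible and none was run. Analyses used Python 3.11.15, pandas 2.3.3, NumPy 2.4.6 and SciPy 1.17.1, and the region, position and half-site searches were tested on simulated data.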

Additional observations from a re-analysis of the deposited data

How the results depend on the processing

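Alternatives were a threshold of 50 or 80, percentiles among the regions of all 3 lists, lowest ranks for ties, overlap of at least 1 bp as sharing, other gene windows and other half-site rules. With a threshold of 80 there were 152 members, with a median width of 550 bp and 36.2% outside genes. A threshold of 50 gave a median width of 350 bp. A gene-end window of 2 kb gave 23.5% of members at gene ends and 39.2% inside genes. In that window 27.8% of the other shared regions lay at gene ends, and the intervals of both shares overlap (19.3 to 28.0 and 25.5 to 30.1). With coding genes only, 7.73% of members lay at gene ends, 39.2% inside genes and 53.1% outside, against 15.6% of the other shared regions at gene ends. Allowing 1 mismatch raised the share of promoter windows with a half-site to 67.7% (48.6 to 83.3), against 59.7% (52.9 to 66.3) at the other shared regions and 50.9% of all windows. The first 2 intervals overlap, so the contrast of 35.5% with 13.4% was not kept under this rule. The full element was in 54.8% (36.0 to 72.7), against 30.6% (24.5 to 37.2) at the other shared regions, and these intervals overlap too. The count of listed targets ran from 16 (threshold of 80) to 28 (threshold of 50). The remaining values stayed within the interval or within 1.5 times the count given above. Overlap of at least 1 bp as sharing gave the same 388 members and the same values throughout. That setting changed nothing in the selection and is no check on it. No paired analysis was possible because each organ has a single list for all of its libraries. Depth is unknown, so the lists cannot show whether a region absent from a list is unbound.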

Other observations

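Several coding genes were the nearest gene of more than 1 core region. There were 16 such genes with 2 members each, among 372 distinct nearest coding genes, and they were named after their values were seen. For Bfsp2, Lhfpl3, Pcdh7, Sergef, Gm11100 and Trp53inp1 both members lay inside the gene or within 5 kb. The pair in Lhfpl3 ranked at 99.3 for liver, 98.6 for spleen and 97.6 for thymus and at 81.0, 97.0 and 98.4. The pair in Sergef ranked at 97.1, 92.9 and 99.8 and at 72.1, 62.9 and 95.4. In other cases the members were distant. Sp3, which encodes a zinc finger factor that binds GC-rich promoters, was the nearest coding gene of members 14955 and 106880 bp away, and Sp1, the gene of a related factor, had a core region at its start (99.2, 89.0 and 89.6). Hes1, a repressor gene downstream of Notch signalling, was the nearest coding gene of members 83507 and 122707 bp away. Pairs of core regions within 10 kb of each other numbered 6, with gaps of 450 to 7550 bp.

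For 18 members at least 2 coding genes lay within 5 kb, so the gene they belong to is unknown from these lists. They include the members at Lzic, Nmnat1 and Tmem274 and at Ranbp3 and Vmac.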
